A study of Rattus norvegicus with 12 samples.

Results

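The genes examined were those of the constitutive proteasome, the protease that degrades ubiquitin-tagged proteins in every nucleated cell. Members were all genes whose platform symbol began with Psma, Psmb, Psmc or Psmd and a digit, without the immunoproteasome genes Psmb8, Psmb9 and Psmb10. The rule gave 34 of the 14217 genes measured. It uses symbols alone, though the group was picked for description with earlier results of these data known. They comprised 7 alpha ring genes, 6 beta ring genes, 6 base ATPase genes, 3 genes for scaffolds and a ubiquitin receptor, 8 lid genes, 3 assembly chaperone genes and Psmc3ip. Psmc3ip encodes a meiotic recombination protein and matched by its symbol alone. It was kept apart in the counts by role but is included in counts and medians of all 34 members. Psmb6, the caspase-like catalytic subunit, has no value because its probe set carries several gene symbols, as does a second probe set annotated with Psma3. Of the 34 genes, 27 had 1 probe set, and the brightest probe set stood for each of the others. Values are log2 signals, so a difference of 1 is a doubling, and a gene is called when its adjusted p in limma is under 0.05.

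The data came from 12 rat esophagus samples, each on its own Affymetrix array, in 4 groups of 3. All rats had 2 weeks of acclimation and were kept 3 to a cage. Treated rats received 0.2 ml injections under the skin of N-nitrosomethylbenzylamine (NMBA), an esophageal carcinogen, at 0.3 mg per kg, given 3 times weekly for 5 weeks, and control rats received only the solvent, dimethyl sulfoxide in water. The NMBA groups are labelled week 6, week 15 and week 29 and are described as early, middle and late stages of tumor development. One label counts these weeks from the treatment itself, so whether they include the 5 weeks of injections is not settled, and no week is stated for the controls. The labels used here state no strain, sex or age, and none ties an array to a particular rat, so the spread behind each p-value is that between samples and may be technical.

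The proteasome is built from a core particle and a regulatory particle. The core particle stacks rings of alpha subunits, which gate the entrance, around rings of beta subunits, 3 kinds of which cut the protein chain. The regulatory particle caps the core: its base holds a ring of ATPases that unfold and thread the substrate, and its lid removes the ubiquitin chain. Transcription of these genes is known to be raised together by the factor encoded by Nfe2l1, which binds antioxidant response elements, and CCAAT boxes bound by NF-Y are common in their promoters.

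Promoter sequences are shown for Psmb7, Psmd1, Psmd7 and Psmd10, the 4 members called against control in any week by their brightest probe set. The sequence of the catalytic subunit gene Psmb5, which was not called, is shown too. Each is the 170 bases up to the annotated start in RefSeq's GRCr8 assembly, 5′ to 3′ on the gene's strand, with capitals marking TGACNNNGC, the core of the antioxidant response element, and CCAAT, each on either strand.
Psmb5, chr15:32047380-32047549, minus strand: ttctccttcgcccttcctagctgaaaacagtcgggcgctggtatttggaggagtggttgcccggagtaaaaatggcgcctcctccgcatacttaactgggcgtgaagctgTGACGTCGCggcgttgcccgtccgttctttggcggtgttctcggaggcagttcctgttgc
Psmb7, chr3:42827471-42827640, minus strand: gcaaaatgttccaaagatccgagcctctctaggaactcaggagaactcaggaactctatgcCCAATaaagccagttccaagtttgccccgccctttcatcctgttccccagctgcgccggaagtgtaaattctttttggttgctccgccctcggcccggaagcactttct
Psmd1, chr9:94157801-94157970, plus strand: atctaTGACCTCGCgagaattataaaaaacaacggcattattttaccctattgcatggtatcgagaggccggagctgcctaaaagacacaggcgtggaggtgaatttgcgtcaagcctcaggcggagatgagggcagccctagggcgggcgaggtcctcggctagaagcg
Psmd7, chr19:52411317-52411486, minus strand: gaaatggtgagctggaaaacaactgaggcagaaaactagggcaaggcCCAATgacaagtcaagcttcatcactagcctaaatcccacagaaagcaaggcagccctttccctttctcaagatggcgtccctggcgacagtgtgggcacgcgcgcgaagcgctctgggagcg
Psmd10, chrX:109453606-109453775, minus strand: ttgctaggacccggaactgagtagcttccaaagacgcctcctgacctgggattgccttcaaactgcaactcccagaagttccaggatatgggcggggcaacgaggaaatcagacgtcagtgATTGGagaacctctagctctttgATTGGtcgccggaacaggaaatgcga
The element core lay 60 bases before the start of Psmb5 and 165 bases before that of Psmd1. A CCAAT box lay 109 bases before the start of Psmb7 and 123 before that of Psmd7, and Psmd10 had 2 on the opposite strand, 49 and 26 bases before its start. Full windows ran from 250 bases before the start to 50 after it, and 30 of the 34 members had one among the promoter sequences used. Psma7, Psmd6, Psmd12 and Psmd14 had none there, so their promoters were not analysed. TGACNNNGC stood in 6 of the 30 windows (20.0%) and in 12.1% of 33469 promoter windows of all genes. CCAAT stood in 17 of 30 (56.7%), against 37.5% of all. Of 12 core particle genes 9 had CCAAT and 3 had TGACNNNGC, and of 14 regulatory particle genes 5 and 2 had them. The median GC content was 56.0% in core, 57.4% in regulatory particle and 51.7% in all promoters. A match is a description of the letters and not a bound site.

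The tissue was labelled as esophageal epithelium, from a piece of esophagus freed of its submucosa and muscle layers. Squamous markers were bright on all 12 arrays, with Krt13, a keratin of the esophageal lining, between 13.17 and 14.55 on the log2 scale. Skeletal muscle RNA was present on every array, with the muscle creatine kinase gene Ckm between 13.07 and 14.59, and its amount differed between groups. The mean log2 signal of 34 of 35 listed muscle markers was 11.85 ± 0.24 (SD, n = 3) without NMBA and then 12.41 ± 0.09, 10.81 ± 0.78 and 12.22 ± 0.14 at weeks 6, 15 and 29. Of 25 listed squamous symbols 21 were measured, and their mean went the opposite way, at 10.99 ± 0.18, 10.16 ± 0.20, 11.44 ± 0.30 and 9.76 ± 0.38. Fibroblast markers, 9 of 9 measured, had a mean of 10.57 ± 0.45, 10.30 ± 0.17, 9.39 ± 0.26 and 10.19 ± 0.29 in the same order, lowest at week 15 like the muscle markers. Proliferation markers, 10 of 10, had a mean of 8.45 ± 0.09, 7.79 ± 0.07, 8.67 ± 0.31 and 7.90 ± 0.49, highest at week 15. The log2 difference between 3′ and 5′ GAPDH control probe sets, which is larger in degraded RNA, was 0.40 ± 0.16, 0.11 ± 0.04, 0.40 ± 0.19 and 0.17 ± 0.04. Proteasome genes are active in muscle and epithelium alike. In bulk tissue fewer cells of a type and less RNA per cell cannot be told apart, and this holds for every difference given here. The part of tissue makeup and RNA quality in the differences below was not tested beyond the values given beside them.

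**Figure D1:**
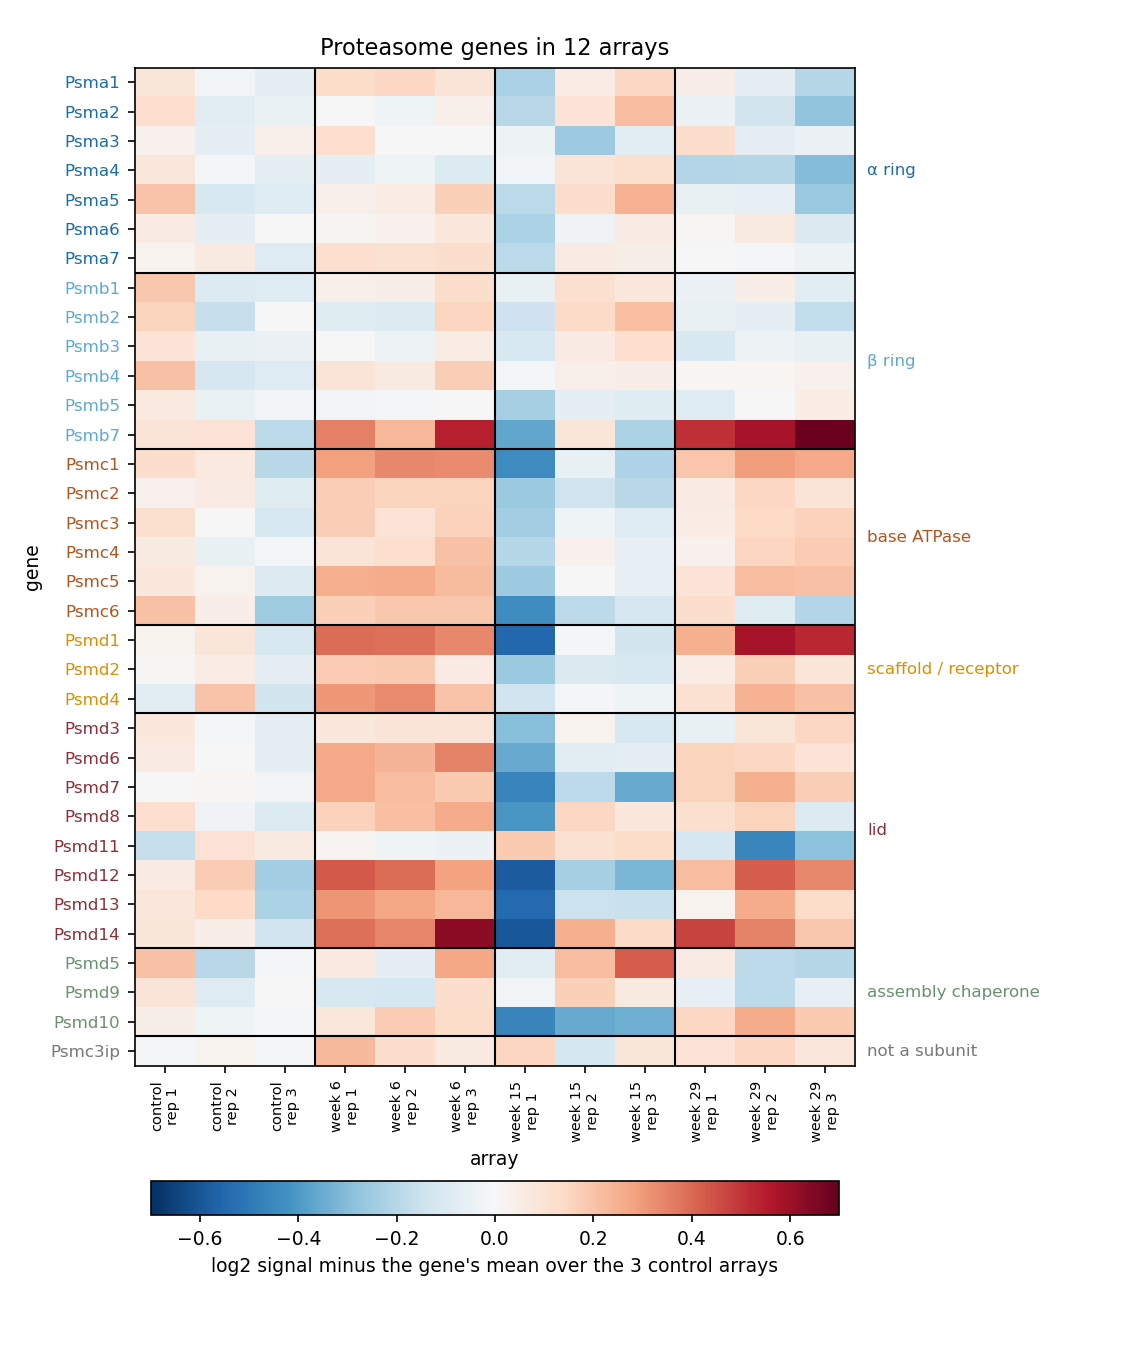
Heat map of the 34 genes (rows, grouped by role) in the 12 arrays (columns). Colour is the log2 signal minus the gene's mean over the 3 control arrays. Most regulatory particle genes are red at weeks 6 and 29 and blue in week 15 replicate 1. In week 15 replicates 2 and 3 they are paler, and some lie above the control mean. Psmd11 is red at week 15 and blue at week 29. Most core particle genes stay pale, with Psmb7 the exception.

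Most regulatory particle genes shared the order of their group means. Of their 17 genes, 16 had their lowest group mean at week 15 and 15 had their highest at week 6. For the core particle 5 of 13 genes were lowest at week 15, 7 at week 29 and 1 in controls. Over all 14217 genes 32.9% were lowest at week 15, 29.3% at week 29, 23.7% at week 6 and 14.1% in controls. Psmd11 was the 1 regulatory gene with its lowest mean elsewhere, at week 29. A difference between the particles in their pattern was not tested.

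Week 6 asked how the early stage differed from control. By its brightest probe set no proteasome gene passed limma's test (0 of 34 at an adjusted p under 0.05, 9 at an unadjusted p under 0.05), while 8.83% of all 14217 genes were called, 5.07% higher and 3.76% lower. A further probe set of each of Psmc6, Psmd7 and Psmd14 did pass, all higher, with adjusted p = 0.0316, 0.041 and 0.0401. The members' median log2 difference was 0.13, with a range of -0.06 to 0.45, and the median of all genes was -0.03. The regulatory particle had a median of 0.22, and in 13 of its 17 genes every week 6 sample lay above every control, as in 20.4% of all genes. The core particle had a median of 0.04, which turned to -0.01 under quantile normalization, and 3 of its 13 genes had all week 6 samples above control. The share of all genes called here rested on single arrays. Of 2342 probe sets called with all arrays, 3 were called without control replicate 1 and 1 without control replicate 3. With the GAPDH difference as a covariate the regulatory median was 0.08.

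Psmd14, the deubiquitinase of the lid, showed the largest difference at week 6 by its brightest probe set. Its signal was 9.82, 9.78 and 9.60 in the controls, 10.12, 10.07 and 10.36 at week 6, 9.14, 9.98 and 9.86 at week 15 and 10.21, 10.08 and 9.92 at week 29. Every week 6 sample was above every control, and the difference of 0.45 ± 0.18 (SE) had an adjusted p of 0.141 in limma. Psmb7, the trypsin-like catalytic subunit, was at 10.81, 10.82 and 10.53 in the controls, 11.07, 10.95 and 11.26 at week 6, 10.36, 10.80 and 10.50 at week 15 and 11.23, 11.30 and 11.40 at week 29. Weeks 6 and 29 lay above all controls and week 15 overlapped them, and at week 6 the difference was 0.38 ± 0.13 (adjusted p = 0.0921). Psmd1, the large scaffold subunit of the base, was at 9.33, 9.39 and 9.19 in the controls, 9.69, 9.68 and 9.64 at week 6, 8.75, 9.29 and 9.17 at week 15 and 9.55, 9.88 and 9.83 at week 29. Its week 6 samples were close together and above every control, at a difference of 0.37 ± 0.14 (adjusted p = 0.107).

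Psmd12, a structural subunit of the lid, was at 9.29, 9.41 and 8.995 in the controls, 9.66, 9.62 and 9.52 at week 6, 8.65, 8.998 and 8.91 at week 15 and 9.45, 9.66 and 9.57 at week 29. The week 6 difference was 0.37 ± 0.12 (adjusted p = 0.0832), with all 3 samples above the controls. Psmd6, another lid subunit, was at 10.93, 10.88 and 10.81 in the controls, 11.14, 11.12 and 11.22 at week 6, 10.52, 10.80 and 10.81 at week 15 and 11.03, 11.02 and 10.97 at week 29. It too was higher in 3 of 3 samples, by 0.28 ± 0.09 (adjusted p = 0.0758). In a fit without the week 15 arrays, whose spread is the widest for many of these genes, Psmd1, Psmd6 and Psmd14 were called at week 6 with adjusted p = 0.0415, 0.0382 and 0.0279. At the other end, Psma4 (-0.06), Psmd9 (-0.04), Psmd11 (-0.02), Psmb5 (-0.01) and Psmb2 (-0.01) were the 5 members with a mean below control, all with overlapping groups. With the GAPDH covariate Psmd14 stood at 0.04.

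At week 15, the middle stage, 2 of 34 members were called, both lower, where 9.92% of all genes were called, 8.38% lower and 1.54% higher. Both were genes of the regulatory particle or its assembly. Psmd10, gankyrin, a chaperone that holds ATPases during assembly of the base, was at 8.63, 8.57 and 8.59 in the controls, 8.67, 8.77 and 8.72 at week 6, 8.13, 8.24 and 8.26 at week 15 and 8.74, 8.86 and 8.78 at week 29. All 3 week 15 samples lay below all controls, a fall of 0.38 ± 0.08 on the log2 scale (1.30-fold, adjusted p = 0.0159). Psmd7, the lid subunit that pairs with the deubiquitinase, was at 10.63, 10.64 and 10.61 in the controls, 10.89, 10.85 and 10.81 at week 6, 10.16, 10.44 and 10.28 at week 15 and 10.78, 10.87 and 10.80 at week 29. It fell by 0.33 ± 0.09 (1.26-fold, adjusted p = 0.0362), also with no overlap.

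Psmd10 remained called at week 15 whichever single array was left out, whereas Psmd7 was lost without any 1 of 7 arrays, namely each control, the first and second of week 6 and the first and last of week 15. Psmd7 was also lost under quantile normalization, and both were lost in a limma fit of the control and week 15 arrays alone (0 of 34 called, 3 at an unadjusted p under 0.05). Psmd12 came next at -0.38 ± 0.12 (adjusted p = 0.081), with a week 15 sample at the level of the lowest control. The members with the highest differences at week 15 were Psmd5 and Psmd9, chaperones of the base like Psmd10, and the lid subunit Psmd11. They stood at 0.19, 0.07 and 0.14, with no call. Psmd5 was at 9.52, 9.12 and 9.30 in the controls, 9.38, 9.24 and 9.58 at week 6, 9.23, 9.53 and 9.74 at week 15 and 9.37, 9.13 and 9.11 at week 29, and its groups overlapped throughout. The catalytic subunits Psmb5 and Psmb7 stood at -0.13 ± 0.08 and -0.17 ± 0.13, neither called. The regulatory particle had a median of -0.16 at week 15 and the core particle 0.02, against 0.03 over all genes. All 34 muscle markers had a mean below control at week 15, with a median difference of -0.97. Of them 7 were called, 28 had an unadjusted p under 0.05 and 18 had every week 15 sample below every control, as had 17.4% of all genes. Of the 9 fibroblast markers 8 were called lower, with a median of -1.20 over the list. The part of fibroblast RNA in the members' differences was not tested. With the muscle score as a covariate limma called no member (0 of 34, 2 at an unadjusted p under 0.05), and Psmd10 stood at -0.41 ± 0.12 and Psmd7 at -0.25 ± 0.12. The GAPDH difference had the same mean at week 15 as in controls.

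At week 29, the late stage, 2 of 34 members were called, both higher, beside 19.3% of all genes called, 8.44% higher and 10.8% lower. Psmb7 rose by 0.59 ± 0.13 on the log2 scale (1.505-fold, adjusted p = 0.017), the largest difference of any member from control at any week. Psmd1 rose by 0.45 ± 0.14 (1.37-fold, adjusted p = 0.044). In both genes every week 29 sample lay above every control in the values given above. Both calls were lost when the first or last control or week 29 replicate 2 or 3 was left out, and with the GAPDH difference as a covariate, where Psmb7 stood at 0.41 and Psmd1 at 0.27. The call of Psmd1 was also lost without control replicate 2 or any week 6 array, and after adding the muscle score (0.43, adjusted p = 0.0884), where Psmb7 kept its call (0.54, adjusted p = 0.038).

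Psmd14 was next among the higher members at week 29, at 0.34 ± 0.18 (adjusted p = 0.225), and at 0.02 with the GAPDH covariate. The lowest members were Psmd11, Psma4 and Psma2. Psma4, an alpha ring subunit, was at 10.60, 10.51 and 10.46 in the controls, 10.47, 10.50 and 10.43 at week 6, 10.51, 10.62 and 10.64 at week 15 and 10.32, 10.33 and 10.22 at week 29. Its week 29 samples were below all others, at -0.24 ± 0.08 (adjusted p = 0.0654), and it was called under quantile normalization (-0.25, adjusted p = 0.0371). The 7 alpha ring genes ranged from -0.24 to 0.00 at week 29, from -0.12 to 0.06 at week 15 and from -0.06 to 0.12 at week 6, with no call. Psma2, also of that ring, stood at -0.15 ± 0.11 with overlapping groups. Psmb5, the chymotrypsin-like subunit, was at 12.18, 12.06 and 12.09 in the controls, 12.09, 12.10 and 12.12 at week 6, 11.88, 12.05 and 12.03 at week 15 and 12.02, 12.11 and 12.16 at week 29. Its group means differed by at most 0.13. The lowest was at week 15, where every sample lay below every control and every week 6 sample, without a call. At week 29 it stood at -0.01 ± 0.08 (adjusted p = 0.93). The members' median at week 29 was 0.06, with 0.13 in the regulatory particle and -0.02 in the core particle, where subtracting each array's median gave 0.01. With the GAPDH covariate the regulatory median was 0.05. The median of all genes was 0.01.

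**Figure D2:**
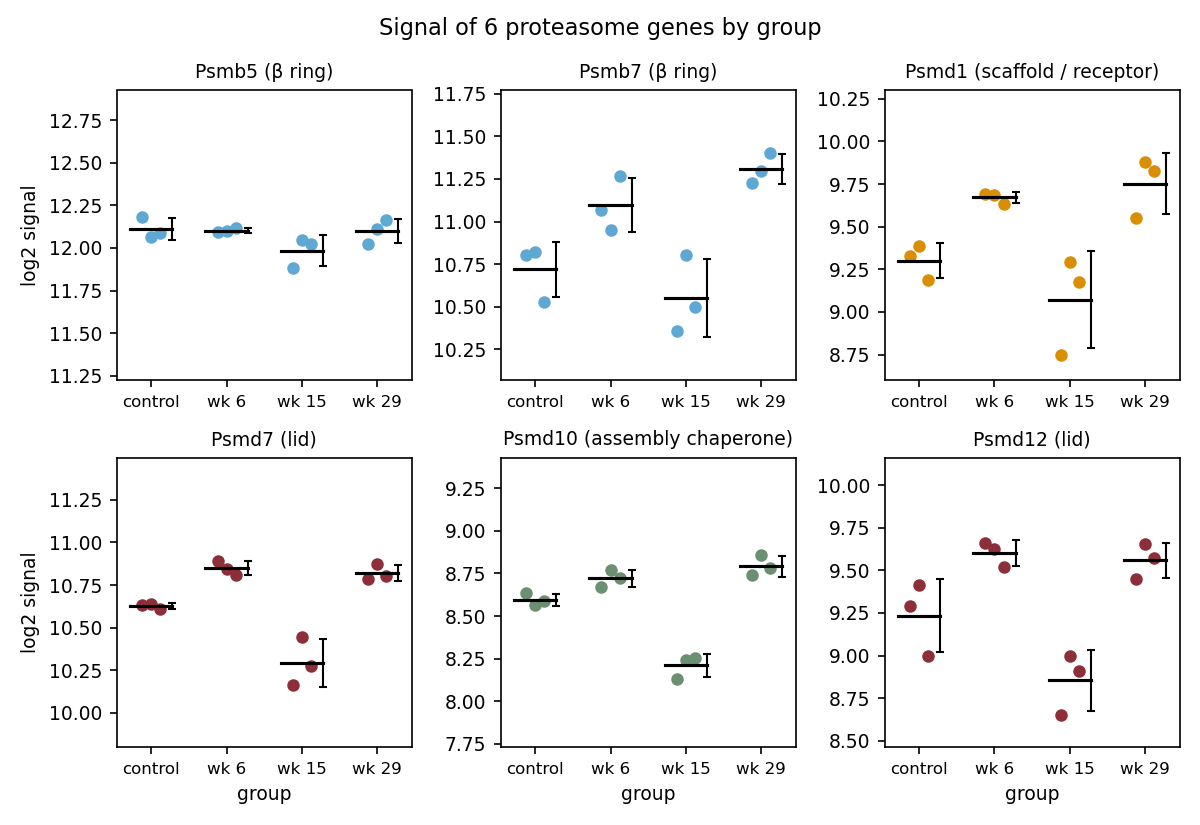
Log2 signal of 6 members in each group, 1 point per array, with the group mean (horizontal line) and SD (bar, n = 3). Each panel spans the same number of log2 units. All 6 have their lowest mean at week 15, and Psmb5 differs least between groups.

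The largest differences among the proteasome genes lay between the NMBA weeks. From week 6 to week 15, 15 of 34 members were lower and 0 higher (44.1%), where 43.9% of all genes were called, 21.2% lower and 22.7% higher. From week 15 to week 29, 11 members were higher and 2 lower (38.2%), where 43.6% of all genes were called, 21.1% higher and 22.4% lower. The total share called was thus near that of all genes in the first step and below it in the second. Called members were all lower in the first step and mostly higher in the second. This mix of directions depended on scaling in both steps, and in the second also on a single array, as given below. The members' median was -0.21 in the first step and 0.16 in the second, beside 0.07 and -0.02 over all genes. Both steps share the week 15 arrays, so values in them are not independent.

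Within the regulatory particle, 13 of 17 genes were lower at week 15 than at week 6 and 0 were higher, with a median of -0.36. In 16 of the 17 every week 15 sample lay below every week 6 sample, as in 25.6% of all genes. Among the base ATPases, which unfold the substrate, 5 of 6 were lower, with a median of -0.35. They were Psmc1 by 0.56, Psmc6 by 0.43, Psmc2 by 0.36, Psmc5 by 0.35 and Psmc3 by 0.27, while Psmc4 stood at -0.21 with an adjusted p of 0.0776. All 3 scaffold and receptor genes were lower, Psmd1 by 0.60, the ubiquitin receptor gene Psmd4 by 0.34 and Psmd2, a scaffold that docks shuttle receptors, by 0.30. In the lid 5 of 8 genes were lower, Psmd12 by 0.75, Psmd7 by 0.56, Psmd13 by 0.55, Psmd14 by 0.52 and Psmd6 by 0.45. Of the lid genes without a call, Psmd3 (-0.21) and Psmd8 (-0.27) still had separate groups. By its brightest probe set Psmd11 (0.16) was the 1 regulatory gene that was higher in every week 15 sample. Of the 3 assembly chaperones Psmd10 was lower, and Psmd5 (0.10) and Psmd9 (0.11) were not called.

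In the core particle 1 of 13 genes was lower, Psmb7, and the median was -0.08. Its 7 alpha ring genes, which form the gate, ranged from -0.16 to 0.12 with no call, and the 5 beta ring genes other than Psmb7 from -0.12 to 0.08. The sign of the core median depended on scaling, since quantile normalization gave 0.11 where it gave -0.22 for the regulatory particle. Under quantile normalization 11 members were called between weeks 6 and 15, and 2 of them, Psma4 and Psmd11, were higher.

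The 6 members with the lowest adjusted p between weeks 6 and 15 were Psmd10, Psmd7, Psmd12, Psmc1, Psmd6 and Psmc2. By brightest probe sets Psmd12 fell the most, by 0.75 ± 0.12 (1.68-fold, adjusted p = 0.000697). Psmd7 fell by 0.56 ± 0.09 and Psmd10 by 0.51 ± 0.08. The base ATPase gene Psmc1 was at 10.51, 10.46 and 10.20 in the controls, 10.68, 10.72 and 10.72 at week 6, 9.95, 10.33 and 10.17 at week 15 and 10.58, 10.68 and 10.65 at week 29, and fell by 0.56 ± 0.11 (adjusted p = 0.00234). Psmc2, another ATPase of the same ring, was at 11.76, 11.79 and 11.64 in the controls, 11.90, 11.88 and 11.89 at week 6, 11.47, 11.59 and 11.54 at week 15 and 11.78, 11.87 and 11.82 at week 29. The spread within groups was small, with an SD of 0.01 at week 6, and the fall was 0.36 ± 0.08 (adjusted p = 0.00394). Psmd6 fell by 0.45 ± 0.09 (adjusted p = 0.00282). Psmd14, whose week 15 samples ran from 9.14 to 9.98, fell by 0.52 ± 0.18 with an adjusted p of 0.0413.

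From week 15 to week 29, by brightest probe sets, the base ATPases gave 3 higher of 6 (Psmc1, Psmc2 and Psmc5). The scaffold and receptor genes gave 2 of 3 (Psmd1 and Psmd2) and the lid 4 of 8 (Psmd6, Psmd7, Psmd12 and Psmd13). The regulatory median was 0.27. Psmb7 rose by 0.76 ± 0.13 (1.69-fold, adjusted p = 0.000803), Psmd12 by 0.70 ± 0.12 and Psmd1 by 0.68 ± 0.14. Psmd10 had the lowest adjusted p of the members, 0.000192, at 0.58 ± 0.08. Psmd7 and Psmc1 rose by 0.53 ± 0.09 and 0.49 ± 0.11. The 2 lower members were Psma4 (-0.30 ± 0.08, adjusted p = 0.0122) and Psmd11 (-0.43 ± 0.10, adjusted p = 0.0061). The core median was -0.07, and quantile normalization gave 7 higher and 7 lower members in place of 11 and 2.

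Between week 6 and week 29 limma called no member (0 of 34, with 1 at an unadjusted p under 0.05) and 0% of all genes. The members' differences ran from -0.27 for Psmd11 to 0.21 for Psmb7, with a median of -0.07. In 12 of the 34 every week 29 sample lay below every week 6 sample, among them 6 of the 13 core genes, and in 0 every sample lay above. Of all 14217 genes 913 lay below and 1327 above in this way. Psmc3ip, the gene that is not a subunit, was at 7.76, 7.80 and 7.76 in the controls, 8.003, 7.90 and 7.84 at week 6, 7.93, 7.65 and 7.86 at week 15 and 7.87, 7.92 and 7.86 at week 29, and it was not called in any comparison.

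**Figure D3:**
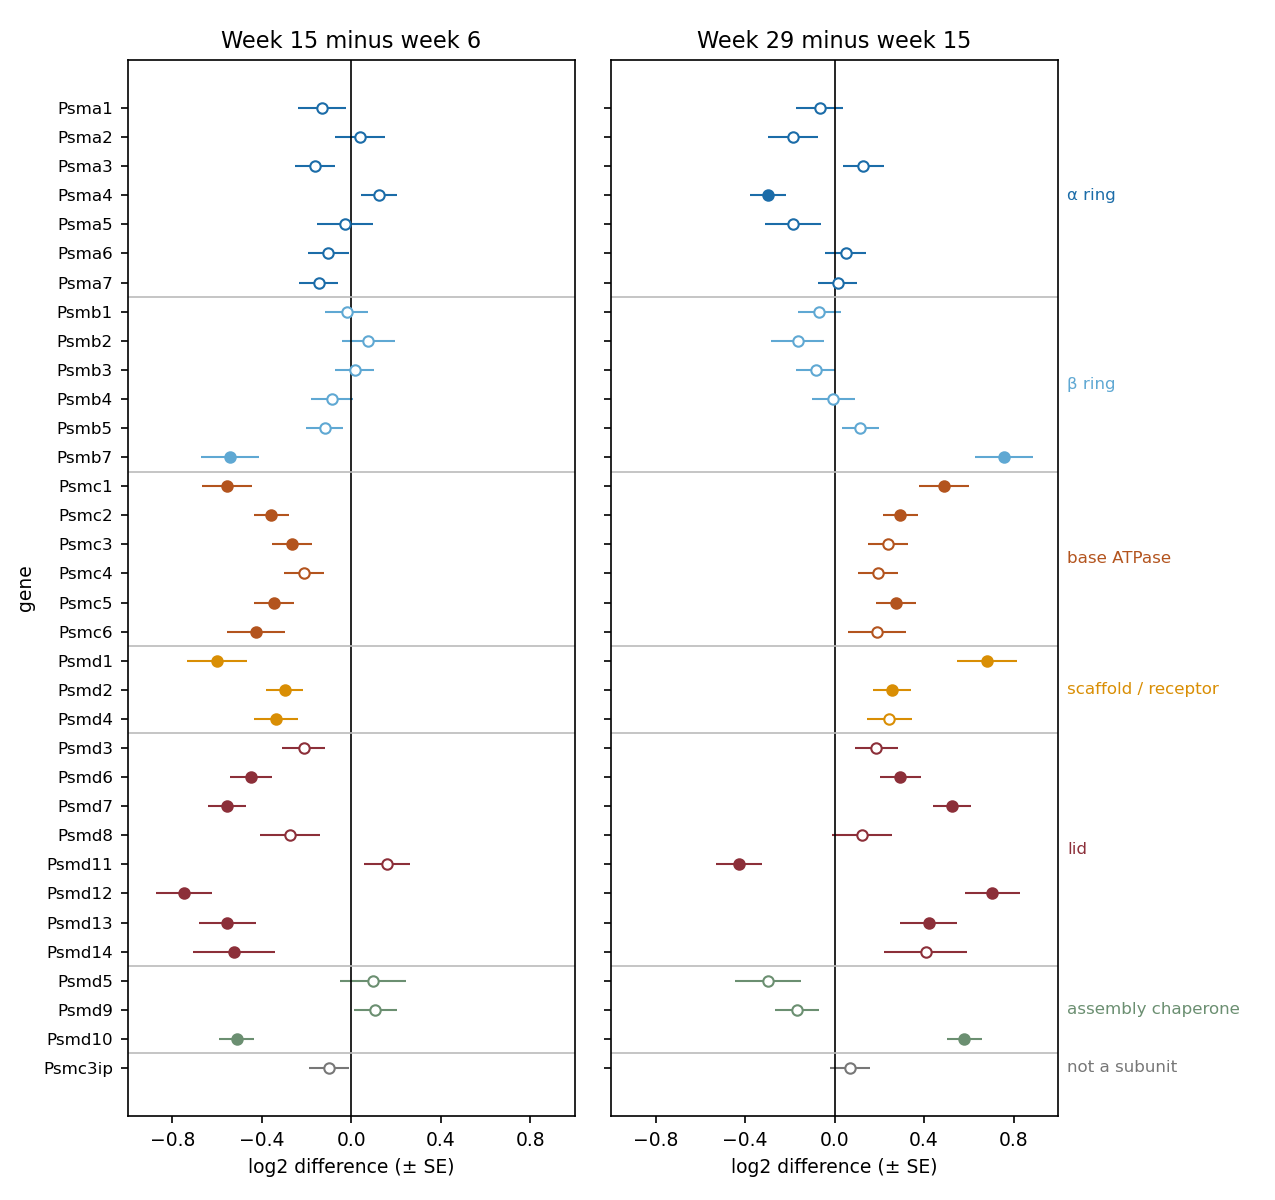
Log2 difference between week 15 and week 6 (left) and between week 29 and week 15 (right) for each member, with its SE. Filled points were called at an adjusted p under 0.05. Regulatory particle genes lie left of 0 in the first panel and right of 0 in the second. Psmd11, shown by its brightest probe set, is on the other side in both.

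The week 15 arrays differed among themselves. Replicate 1 was the lowest of its group in 16 of 17 regulatory and 12 of 13 core genes. The median regulatory gene stood at -0.35 from its control mean in that array, and at -0.03 and -0.11 in replicates 2 and 3. The core medians of the 3 arrays were -0.19, 0.06 and 0.08. Replicate 1 also had the largest GAPDH difference of all 12 arrays, 0.60, against 0.22 and 0.37 in replicates 2 and 3. Its muscle score was 10.93, between 11.52 in replicate 2 and 9.98 in replicate 3. Replicate 2, with the most muscle signal of the 3, was the highest in 14 of 17 regulatory genes. Among controls, replicate 3 was the lowest in 15 of 17 regulatory genes. The week 6 arrays lay close together, with regulatory medians of 0.25, 0.22 and 0.21, and those of week 29 were 0.11, 0.16 and 0.16.

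Without week 15 replicate 1, 10 members were lower at week 15 than at week 6, all of them among the 15, and from week 15 to week 29 7 were higher and 4 lower. The second step also gave 8 called members in place of 13 without week 29 replicate 3. Of the 34 muscle markers 32 were lower at week 15 than at week 6 and 28 were higher at week 29 than at week 15. Of the 9 fibroblast markers 6 were lower in the first step and 6 higher in the second, and of the 10 proliferation markers 9 were higher and then 7 lower. With the muscle score as a covariate the regulatory median from week 6 to week 15 was -0.36, as without it, while the median SE rose from 0.10 to 0.20. In limma no member was then called (0 of 34, 7 at an unadjusted p under 0.05), and of all probe sets 10 were called in place of 11723. The core median moved from -0.08 to -0.19, and was -0.02 with the GAPDH difference in its place. With the GAPDH difference as a covariate the regulatory median was -0.25 and 3 members were called, Psmd7, Psmd10 and Psmd12. For week 15 to week 29 the regulatory median was 0.27 with the muscle score, where limma called 0 members (8 at an unadjusted p under 0.05), and 0.20 with the GAPDH difference, where 6 were called. The core median of that step was 0.05 with the muscle score and -0.10 with the GAPDH difference.

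**Figure D4:**
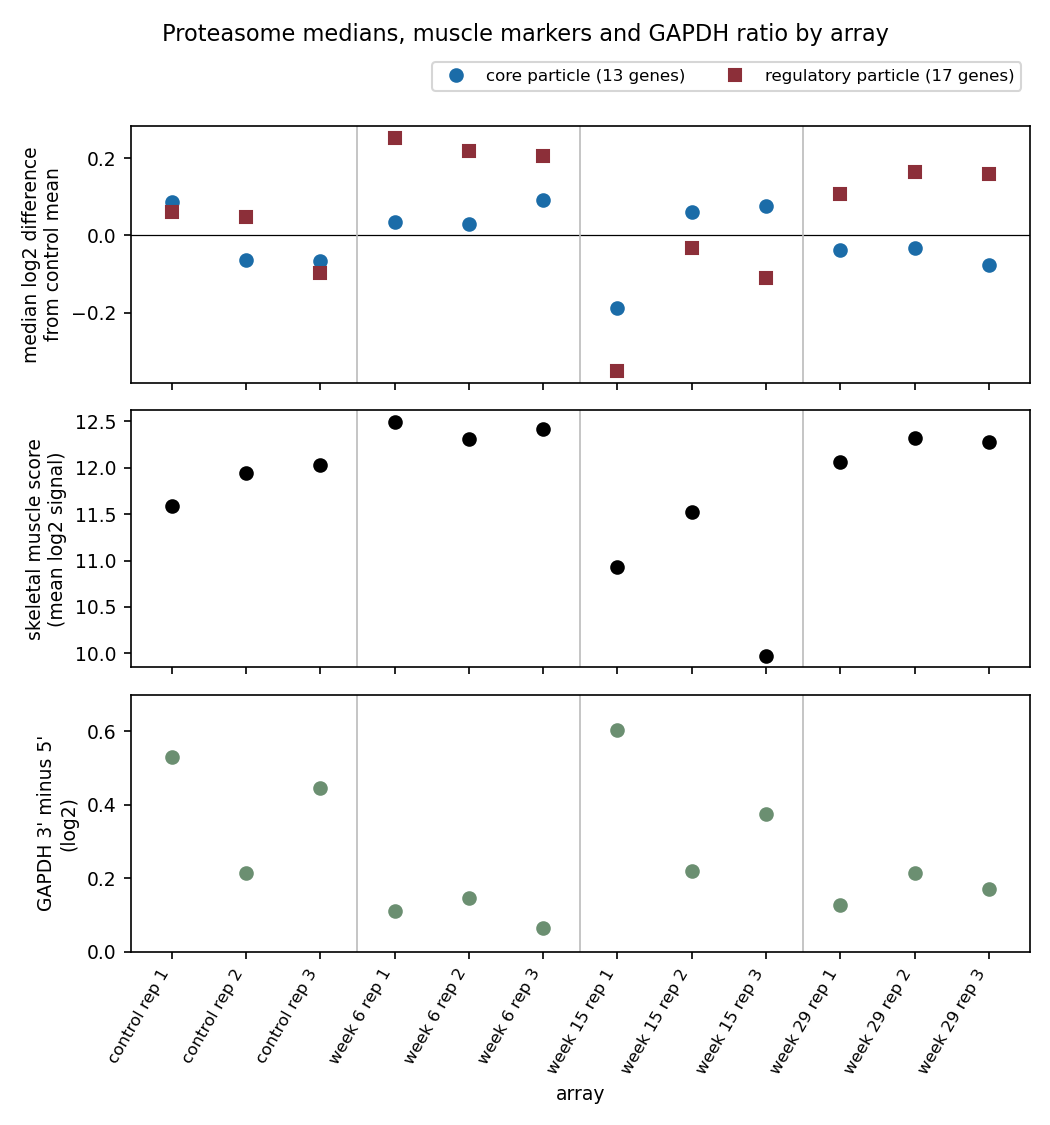
For each of the 12 arrays, the median log2 difference from the control mean over the core and the regulatory particle genes (top), the mean log2 signal of the skeletal muscle markers (middle) and the log2 difference between 3′ and 5′ GAPDH probe sets (bottom). Week 15 replicate 1 has the lowest regulatory median, -0.35, and the largest GAPDH difference, 0.60, and week 15 replicate 3 the lowest muscle score, 9.98.

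Where a gene had several probe sets they did not always move together. Psmd11 was the clearest case. Its brightest probe set (1374712_at) was at 10.88, 11.14 and 11.10 in the controls, 11.06, 11.01 and 11.0001 at week 6, 11.22, 11.15 and 11.17 at week 15 and 10.92, 10.59 and 10.75 at week 29. A second one (1376069_at) was at 10.64, 10.66 and 10.55 in the controls, 10.84, 10.69 and 10.98 at week 6, 10.61, 10.82 and 10.79 at week 15 and 10.91, 10.86 and 10.93 at week 29. At week 29 the first stood 0.29 below control (adjusted p = 0.0741) and the second 0.28 above (adjusted p = 0.0628). From week 6 to week 15 the second stood at -0.10 with overlapping groups. From week 15 to week 29 it stood at 0.16, higher in every week 29 sample but not called. The direction of Psmd11 thus differs between its probe sets. Psmc6, a base ATPase gene, was not called at week 15 by its brightest probe set (-0.25, adjusted p = 0.26), but a second probe set (1379850_at) fell by 0.42 ± 0.10 (adjusted p = 0.024). Another Psmc6 probe set (1382385_at) was higher at week 6, by 0.34 (adjusted p = 0.0316). From week 15 to week 29 1379850_at and 1382385_at were called higher, by 0.48 and 0.45 (adjusted p = 0.00245 and 0.00115), while the brightest was not called. Dimmer probe sets of Psmd14 (1386073_at) and Psmd7 (1379322_at) were also higher at week 6, by 0.55 (adjusted p = 0.0401) and 0.46 (adjusted p = 0.041). A Psmd14 probe set nearly as bright as the one used (1383429_at) stood at 0.20 at week 6 (adjusted p = 0.363), with overlapping groups. From week 6 to week 15 it stood at -0.34 (adjusted p = 0.0583), without a call. In that step the dimmer 1386073_at of Psmd14 fell by 1.06 (2.08-fold, adjusted p = 0.000221), more than any member by its brightest probe set. It then rose by 0.60 to week 29 (adjusted p = 0.00596). With the mean of each gene's probe sets, 1 member was called at week 6, Psmd7, and at week 15 Psmc6 was called in place of Psmd7. The probe set shared by Psma3 and a similar gene, and that of Psmb6, were left out because they cannot be given to 1 gene.

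The inducible catalytic subunits, which replace the constitutive ones in immune and interferon-treated cells, were lowest at week 29. Psmb9 was at 8.85, 8.65 and 8.99 in the controls, 7.93, 8.10 and 8.28 at week 6, 8.34, 8.21 and 8.14 at week 15 and 7.37, 7.80 and 7.71 at week 29. All treated samples lay below all controls, with falls of 0.72, 0.60 and 1.20 at weeks 6, 15 and 29 (adjusted p = 0.021, 0.0217 and 0.00232), the last a 2.31-fold change. Psmb8 was at 8.40, 8.04 and 8.29 in the controls, 7.58, 7.55 and 7.88 at week 6, 7.93, 7.85 and 7.71 at week 15 and 7.03, 7.29 and 7.36 at week 29, and was called at week 6 (-0.58, adjusted p = 0.0281) and week 29 (-1.02, adjusted p = 0.00372). Psmb10 was called at week 29 alone, at -0.45 (adjusted p = 0.021). From week 6 to week 15 0 of 3 were called and they stood at 0.02 to 0.16 (0 at an unadjusted p under 0.05). Of the 6 constitutive beta ring genes 1 was called lower in that step, Psmb7, with a median of -0.05 over the ring. From week 15 to week 29 Psmb8 and Psmb9 each fell by 0.60. The mean log2 signal of 9 leukocyte markers was 7.15 ± 0.30, 6.87 ± 0.16, 7.06 ± 0.29 and 6.89 ± 0.36 (SD, n = 3) in controls and at weeks 6, 15 and 29, and limma called 0, 0 and 1 of them against control (2, 1 and 1 at an unadjusted p under 0.05). The mean of 7 endothelial markers was 8.70 ± 0.14, 8.22 ± 0.02, 8.33 ± 0.19 and 8.08 ± 0.17. All 7 lay below control in mean at every week, with 2, 2 and 5 called lower. The part of endothelial RNA in the immunoproteasome differences was not tested, and no test set the inducible against the constitutive genes.

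**Figure D5:**
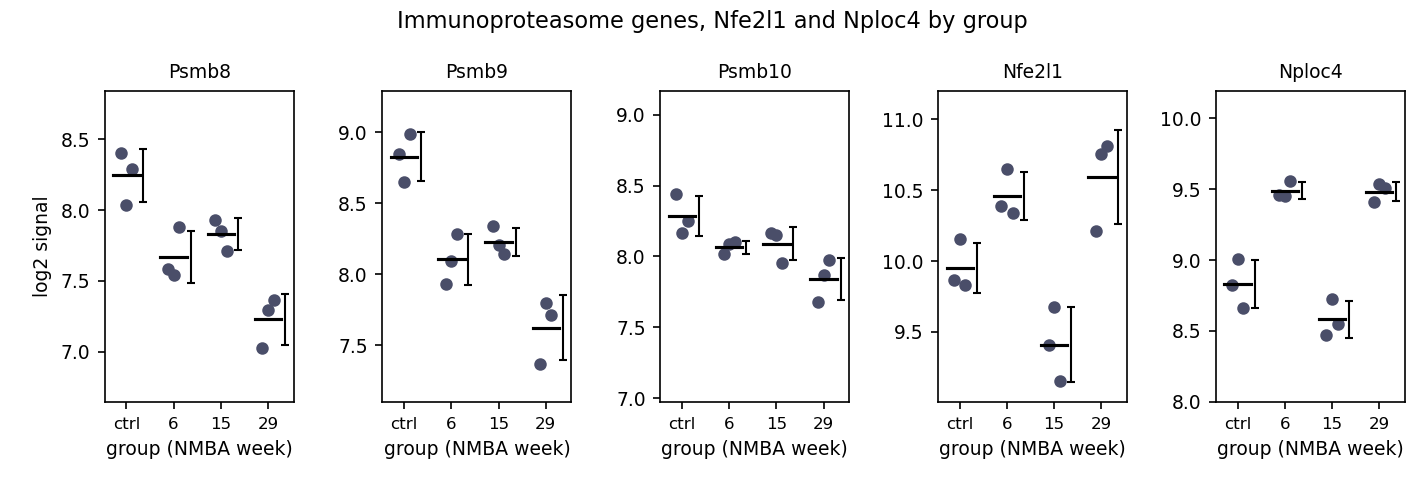
Log2 signal of the immunoproteasome genes Psmb8, Psmb9 and Psmb10, of Nfe2l1 and of Nploc4 in each group, 1 point per array, with the group mean (line) and SD (bar, n = 3). Each panel spans the same number of log2 units. The immunoproteasome genes are lowest at week 29, and Nfe2l1 and Nploc4 at week 15.

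Of 59 listed symbols of genes that work with the proteasome, 48 were measured. The 59 include the older symbols Shfm1 beside Sem1 and Ufd1l beside Ufd1. They also include the immunoproteasome genes but not the muscle ubiquitin ligases. Against control 4 were higher and 2 lower at week 6, where 5.07% and 3.76% of all genes were. The 2 lower genes were Psmb8 and Psmb9. At week 15 they were 1 and 3, where 1.54% and 8.38% of all genes were. At week 29 they were 4 and 5, where 8.44% and 10.8% of all genes were. From week 6 to week 15 5 were higher and 23 lower, where 22.7% and 21.2% of all genes were. From week 15 to week 29 19 were higher and 7 lower, where 21.1% and 22.4% of all genes were. The lists named next are read against these shares. Of 4 activator and inhibitor genes 2 were lower at week 15 than at week 6 and 2 were higher at week 29 than at week 15, in both steps Psme4 (-0.57 and 0.58) and Psme1 (-0.48 and 0.33), which encode core-binding activators. Of 6 assembly chaperones of other names 3 were lower in the first step, Psmg3 by 0.59, Ecpas by 0.53 and Psmg4 by 0.31, and Psmg3 was higher than control at week 6 (0.37, adjusted p = 0.0403). The deubiquitinases Usp14 and Uchl5, which bind the regulatory particle, were lower at week 15 than at week 6 by 0.27 and 0.32, 2 of the 4 measured partners. Of 4 shuttle receptors that carry ubiquitinated proteins to the proteasome, 1 was lower in the first step (Ubqln2, -0.24) and 1 higher in the second (Ubqln4, 0.36).

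The segregase Vcp, which extracts ubiquitinated proteins for the proteasome, was not called in any comparison, but its cofactors were. Nploc4 was at 8.82, 9.01 and 8.66 in the controls, 9.46, 9.45 and 9.56 at week 6, 8.47, 8.73 and 8.55 at week 15 and 9.41, 9.53 and 9.51 at week 29. Weeks 6 and 29 lay above all controls, at 0.66 ± 0.10 (adjusted p = 0.0184) and 0.65 ± 0.10 (adjusted p = 0.00796). From week 6 to week 15 it fell by 0.91, and 4 of the 5 genes of this list were lower, including Ufd1 (-0.56) and Faf1 (-0.52). From week 15 to week 29 the same count, 4 of 5, was higher.

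Nfe2l1 and Nfe2l2, factors that regulate proteasome genes, moved in opposite directions between the NMBA weeks. Nfe2l1 was at 9.87, 10.15 and 9.83 in the controls, 10.39, 10.65 and 10.34 at week 6, 9.41, 9.68 and 9.15 at week 15 and 10.21, 10.76 and 10.81 at week 29. It fell by 1.05 ± 0.18 from week 6 to week 15 (adjusted p = 0.00076) and rose by 1.18 ± 0.18 to week 29 (adjusted p = 0.000322), where it was above control by 0.65 (adjusted p = 0.0321). Nfe2l2, the factor of the oxidative stress response, was at 11.23, 10.54 and 10.96 in the controls, 10.71, 10.28 and 10.59 at week 6, 11.15, 11.33 and 11.65 at week 15 and 10.76, 10.16 and 10.01 at week 29. It rose by 0.85 ± 0.22 in the first step (adjusted p = 0.00926) and fell by 1.07 ± 0.22 in the second (adjusted p = 0.00233). Of the enzymes that activate the Nfe2l1 protein, Ngly1 was lower in the first step (-0.38, adjusted p = 0.0277) and Ddi2 was not called. The factors act as proteins, which were not measured, and their part in the members' levels was not tested.

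The COP9 signalosome, a complex whose subunits resemble those of the lid, gave 6 of 9 genes lower and 1 higher from week 6 to week 15, with a median of -0.35, and 5 of 9 higher from week 15 to week 29, with a median of 0.29. Of all genes 43.9% and 43.6% were called in these steps, in either direction. Against control Cops8 was lower at week 15, by 0.31 (adjusted p = 0.039), and Cops7a higher at week 29, by 0.32 (adjusted p = 0.0277). The medians of the lid genes in the same steps were -0.49 and 0.35. The 2 measured E1 enzymes that start ubiquitination went the other way, Uba1 rising by 0.34 from week 6 to week 15 (adjusted p = 0.0123) and Uba6 falling by 0.40 from week 15 to week 29 (adjusted p = 0.0417).

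The muscle ubiquitin ligases Trim63 and Fbxo32, which feed the proteasome during muscle wasting, were both called between the NMBA weeks. Trim63 was at 8.75, 9.95 and 8.95 in the controls, 10.09, 10.52 and 10.33 at week 6, 7.72, 8.31 and 6.32 at week 15 and 10.12, 10.24 and 10.03 at week 29. It fell by 2.86 ± 0.41 from week 6 to week 15 (7.28-fold, adjusted p = 0.000304). At week 15 it was also lower than control, by 1.77 (adjusted p = 0.0244). Its lowest array, week 15 replicate 3, was also the array with the least muscle signal. Fbxo32 was higher than control at weeks 6 and 29, by 1.20 (adjusted p = 0.021) and 0.78 (adjusted p = 0.0379). Of 7 genes of the response to damaged proteins, Hspa1a, an inducible chaperone, was higher than control at week 15 (0.72, adjusted p = 0.0449) and Hsph1, a related chaperone, was lower (-0.33, adjusted p = 0.0473). Bag3 was higher at weeks 6 and 29 (0.39 and 0.36), while Dnajb1 and Hspa5 were lower at week 29 (-0.77 and -0.56).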

How the data were processed

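Each of the 12 arrays was an Affymetrix rat expression array of total RNA from esophagus. The authors deposited log2 signals per probe set, between 2.49 and 14.71. The submitters' processing notes name Affymetrix Expression Console, and no source used here states the summarization method. Of 31099 rows, 57 array controls were left out and 31042 probe sets were tested. Gene symbols came from GEO's platform annotation: 20826 probe sets had 1 symbol, 436 several and 9780 none listed. Of the single-symbol probe sets 20758 matched RefSeq's gene table, and 0 symbols changed.

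A gene was represented by its brightest single-symbol probe set. One linear model with 4 group means and no covariate was fitted to all 12 arrays (limma 3.58.1 in R 4.3.3, 8 residual degrees of freedom), with Benjamini-Hochberg adjustment over 31042 probe sets and calls at an adjusted p under 0.05. All comparisons with control share the control arrays. Percentages of all genes called refer to the 14217 genes. The number of arrays limits the precision. Any pair of arrays shared 7 to 47 identical values, so none was counted as a copy.

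Members, gene lists and tests were chosen with earlier results of these data known. The text names, in each control comparison, called members (the 3 of lowest p where fewer were called), the 3 largest rises and falls, and always Psmb5, Psmb7 and, had it a value, Psmb6, then up to 6 called members between NMBA weeks and up to 3 called genes per pathway list. The split of the regulatory particle into base and lid followed textbook assignments. Alternatives were array median subtraction, quantile normalization, a filter at a log2 signal of 6, an intensity trend, fits of 2 groups, a fit without week 15, the muscle score or the GAPDH difference as a covariate, the mean of a gene's probe sets, a replicate block and leaving out each array. The fitting code was tested on simulated data. Promoter windows were RefSeq's GRCr8 sequences from 250 bases before to 50 after the start.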

Additional observations from a re-analysis of the deposited data

Results flagged for a closer look

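Among the members, 15 differed between weeks 6 and 15 and 13 between weeks 15 and 29 by limma's test with Benjamini-Hochberg adjustment. The 4 listed here are those that were also called against control in 1 of the weeks by their brightest probe set. Psmb7 differed by 0.76 between its week 29 and week 15 differences from control (0.59 and -0.17, adjusted p = 0.000803), and Psmd1 by 0.68 (0.45 and -0.23, adjusted p = 0.002). Psmd10 differed by -0.51 between week 15 and week 6 (-0.38 and 0.13, adjusted p = 0.000444) and by -0.58 between week 15 and week 29 (-0.38 and 0.20, adjusted p = 0.000192). Psmd7 differed by -0.56 (-0.33 and 0.22, adjusted p = 0.000477) and by -0.53 (-0.33 and 0.19, adjusted p = 0.000589) in the same pairs. In all of these pairs every sample of 1 week lay below every sample of the other, and the skeletal muscle signal differed in the same direction.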

How the results depend on the processing

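Counts of called members changed with the setting, and the cause was not tested. At week 6 (0 called) there were 2 with only the 2 groups compared, 3 without the week 15 arrays and 1 with the mean of a gene's probe sets. At week 15 (2 called) there were 1 under quantile normalization and 0 with 2 groups or the muscle score. At week 29 (2 called) there were 4 under quantile normalization (3 higher, 1 lower), 1 with the muscle score and 0 with the GAPDH difference. Between weeks 6 and 15 (15 called) the muscle score gave 0 and the GAPDH difference 3. Between weeks 15 and 29 (13 called) 2 groups gave 7, the muscle score 0 and the GAPDH difference 6. Leaving out 1 array gave 0 to 2 called members at week 6, 1 to 2 at week 15, 0 to 3 at week 29, 10 to 17 from week 6 to 15, 8 to 15 from week 15 to 29, and 0 to 0 between weeks 6 and 29. With replicate numbers as a block the counts were 0, 2, 2, 13, 13 and 0. Of 18 same-number pairs 8 correlated above 0.1 (range -0.41 to 0.29). Pairs of unlike number were not set beside them, so whether the numbers pair the samples is not settled. For single named genes 718 alternative values kept their side of the threshold, 15 of them uncalled values of opposite sign, while 44 lost a call, 10 gained one, and 0 called values changed sign. Muscle, squamous, fibroblast and proliferation signal and the GAPDH difference moved with the groups, so their share in a difference cannot be told apart from that of NMBA and week.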
